A study of Homo sapiens with 12 samples.

Results

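Integrins and laminins were taken from the count table by their gene symbols, as rows named for an integrin alpha chain, an integrin beta chain or a laminin alpha, beta or gamma chain. The rule found 38 of the 44659 genes: 18 integrin alpha chains, 8 integrin beta chains and 12 laminin chains. RNA-seq was performed on A375, a long-established line of human melanoma cells that carries mutated BRAF, in 2 experiments of 6 libraries each. In the MAPKi experiment, cells received vemurafenib, a BRAF inhibitor, at 500 nM together with cobimetinib, a MEK inhibitor, at 500 nM for 24 h, and control cells received DMSO. In the Gln experiment, cells were kept for 24 h in medium without glutamine (Gln-depleted) or in control medium (CTRL) with 2 mM glutamine. Each group had 3 libraries made after depletion of ribosomal RNA, and no label states whether they came from separate cultures, so p-values measure only the spread between these libraries.

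The labels describe RNA from a cytoplasmic lysate but also name the molecule total RNA, as the study's methods do, and which was sequenced is not settled by the sources used here. All 12 libraries came from the same cell line, grown with 2 mM glutamine before treatment, and the MAPKi and DMSO groups kept that glutamine. The MAPKi and DMSO libraries belonged to sequencing batch 2 and the Gln-depleted and CTRL libraries to sequencing batch 1, so levels of the 2 experiments were not compared by a test. Within the Gln experiment, replicate 1 of both groups belonged to experimental batch 1 and replicates 2 and 3 to experimental batch 2. Between 31056296 and 40071368 reads were counted per library. The MAPK target genes DUSP6, SPRY4 and ETV5 all fell with MAPKi. DUSP6, a phosphatase that switches off ERK, had 2, 8 and 8 raw counts with MAPKi and 4302, 4634 and 4477 with DMSO. Of 7 melanocyte lineage markers, SOX10 had 10043 raw counts or more in every library and MITF 1654 or more, while MLANA had as few as 2 and TYR as few as 11. The summed level of the 7 markers was 8826 to 10780 CPM (raw counts scaled to the depth of the library) with MAPKi, 1349 to 1420 with DMSO, 603.6 to 681.2 in Gln-depleted medium and 1021 to 1308 in CTRL medium, and its part in the results was not tested. Most of that sum came from DCT, with 218834 to 321851 raw counts with MAPKi and 5714 to 7877 with DMSO. With MAPKi, 5 of the 7 markers were upregulated and 1, S100B, was downregulated, with 1224 to 1665 raw counts against 5447 to 6535.

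Integrins are receptors made of an alpha and a beta chain that span the cell membrane and tie the extracellular matrix to the actin cytoskeleton. The alpha chain largely sets which matrix protein is bound, and some beta chains pair with several alpha chains. Laminins are large secreted proteins of the basement membrane, each built from an alpha, a beta and a gamma chain, and several integrins bind to the alpha chain. In melanoma, the pair of alphaV and beta3 chains is known for its appearance when tumour cells leave the epidermis and enter the dermis.

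Promoter sequences are shown for 4 members that had large changes with MAPKi and that each hold a motif match marked below. Of these, ITGA6 and ITGB5 fell, and LAMA5 and LAMB2 rose. Promoters of other members with large changes, such as ITGA10 (log2 fold change -3.13), are not shown. The printed sequences are the RefSeq bases just before the start of each gene on GRCh38.p14, on the strand of the gene. LAMB2 was shortened by 68 bases where an annotated exon begins. Capitals mark a match to the ETS motif CCGGAA or, in ITGA6, to the E-box CACGTG, both searched on either strand.
ITGA6 (chr2:172427086-172427335, plus strand): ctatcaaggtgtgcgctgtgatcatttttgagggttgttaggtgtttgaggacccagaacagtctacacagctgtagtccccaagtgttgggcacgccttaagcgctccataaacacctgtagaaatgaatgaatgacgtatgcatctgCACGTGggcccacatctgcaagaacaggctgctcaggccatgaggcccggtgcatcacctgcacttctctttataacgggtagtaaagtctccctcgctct
ITGB5 (chr3:124901419-124901668, minus strand): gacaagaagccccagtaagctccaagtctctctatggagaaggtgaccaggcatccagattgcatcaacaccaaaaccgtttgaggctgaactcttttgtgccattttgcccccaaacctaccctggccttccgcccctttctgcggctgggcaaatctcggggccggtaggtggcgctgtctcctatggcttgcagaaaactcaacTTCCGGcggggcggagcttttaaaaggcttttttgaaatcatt
LAMA5 (chr20:62367313-62367562, minus strand): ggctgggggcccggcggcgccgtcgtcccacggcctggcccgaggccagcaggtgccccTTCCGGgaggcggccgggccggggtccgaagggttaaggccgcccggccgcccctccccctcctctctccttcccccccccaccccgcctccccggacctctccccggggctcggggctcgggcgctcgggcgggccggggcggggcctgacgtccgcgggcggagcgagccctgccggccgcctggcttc
LAMB2 (chr3:49133119-49133300, minus strand): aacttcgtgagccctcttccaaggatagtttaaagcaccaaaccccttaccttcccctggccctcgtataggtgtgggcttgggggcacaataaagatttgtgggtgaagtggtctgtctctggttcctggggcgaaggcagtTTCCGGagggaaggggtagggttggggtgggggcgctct

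A promoter of 250 bases was found for 26 of the 38 members. The ETS motif was present in 4 of these 26 (ITGB1, ITGB5, LAMA5 and LAMB2) and in 14.8% of 27305 promoters of the same length. The members that hold it moved in both directions, since ITGB5 fell with MAPKi while LAMA5, LAMB2 and ITGB1 rose. The E-box was present in ITGA6 alone among the 26, against 6.49% of all promoters. The TEAD motif GGAATG was found in 4 of the 26 (ITGA5, ITGA10, ITGB1 and LAMA2) against 11.9% of all promoters, and the AP-1 motif TGANTCA in LAMA3 alone, against 6.6%. Promoters of ITGA3, ITGA7, ITGA9, ITGAD, ITGAL, ITGAX, ITGB2, ITGB3, ITGB4, LAMA1 and LAMC3 were not analysed here.

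A375 cells in DMSO expressed few integrin and laminin chains at a high level. Levels of different genes were compared as reads per kilobase of annotated exon, scaled to the depth of the library (RPKM). ITGB3, the beta chain that pairs with alphaV, had the highest mean level in DMSO, at 229.5 ± 1.1 RPKM (SD, n = 3). ITGA6, a laminin-binding alpha chain, followed at 143.3 ± 7.79, and ITGB5, another partner of alphaV, at 105.0 ± 0.567. LAMC1, the gamma chain shared by most laminins, had a level of 95.8 ± 4.92. ITGA4, ITGA5 and LAMB1 lay close together, at 36.9 ± 1.17, 36.0 ± 2.34 and 35.5 ± 2.08 RPKM, and did not differ beyond their spread. Next in order came ITGB8, LAMA4, ITGB1, ITGAV, ITGA3, LAMB2 and LAMA1, which had mean levels from 24.1 down to 14.2 RPKM. The first 4 genes were the same in CTRL medium, where ITGB3 had 249.4 ± 60.3 RPKM and ITGA6 149.4 ± 34.4. The union of annotated exons differs in length between members, for example 19336 bases for ITGAV, 15156 for ITGB8 and 14561 for ITGB1 against 6829 for ITGB3. A read on ITGAV, ITGB8 or ITGB1 therefore counts for less on this scale than a read on ITGB3, and the order of levels depends on these lengths.

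Several chains best known from leukocytes, platelets, epithelia or stroma were near 0. ITGA8, ITGA2B, ITGA11, ITGAD, ITGAL, ITGAM, ITGB6 and ITGB2 had at most 12 raw counts in any library and passed the filter (a mean normalized count of at least 10) in neither experiment. ITGB7 passed it in the MAPKi experiment alone, and only through the MAPKi libraries (mean of 31.2 normalized counts, against 7.7 with DMSO). In each experiment, 29 of the 38 members were tested. ITGAX, a beta2 partner on leukocytes, was well counted although its partner ITGB2 had at most 8 raw counts. The leukocyte marker CD3E was at 0 in every library and PTPRC at 17 or fewer, and the summed level of the 7 leukocyte markers was 11.72 to 13.01 CPM with MAPKi, 10.1 to 11.1 with DMSO, 6.36 to 6.52 in Gln-depleted medium and 8.05 to 10.4 in CTRL medium. Most of that sum came from LCP2, with 149 to 421 raw counts, and LYZ had 25 to 62. KRT5 and DSG3 of the keratinocyte list, and GP9 and PPBP of the platelet list, were at 0, and PECAM1 and CDH5 of the endothelial list had at most 1 raw count. In summed level, the 5 keratinocyte markers stayed at or below 0.767 CPM and the 4 platelet markers at or below 0.547, while the 4 endothelial markers reached 8.28 to 8.87 with MAPKi against 4.36 to 5.15 with DMSO, almost all of it from VWF.

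With MAPKi, the set of chains changed in both directions. ITGB3, the beta chain with the highest level in DMSO, was 14.9-fold lower, and ITGA6, ITGA10, ITGB5 and ITGB8 fell with it. LAMA5 and LAMB2, the alpha and beta chains of laminin types found in mature basement membranes, were 4.04-fold and 3.38-fold higher. In such bulk libraries, fewer cells with a transcript and less of it per cell cannot be told apart. Of the 29 members tested, 6 were upregulated and 7 downregulated against a threshold of a 1.5-fold change (edgeR, Benjamini-Hochberg adjusted p of at most 0.05). Among all 15975 genes tested, 16.4% were upregulated and 17.4% downregulated, against 20.7% and 24.1% of the members tested. Against no change, 9 members rose and 15 fell, that is 31% and 51.7% of those tested, where 36.4% of all genes rose and 35.3% fell. The median log2 fold change was -0.15 over the 29 members and 0.011 over all genes.

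**Figure D1:**
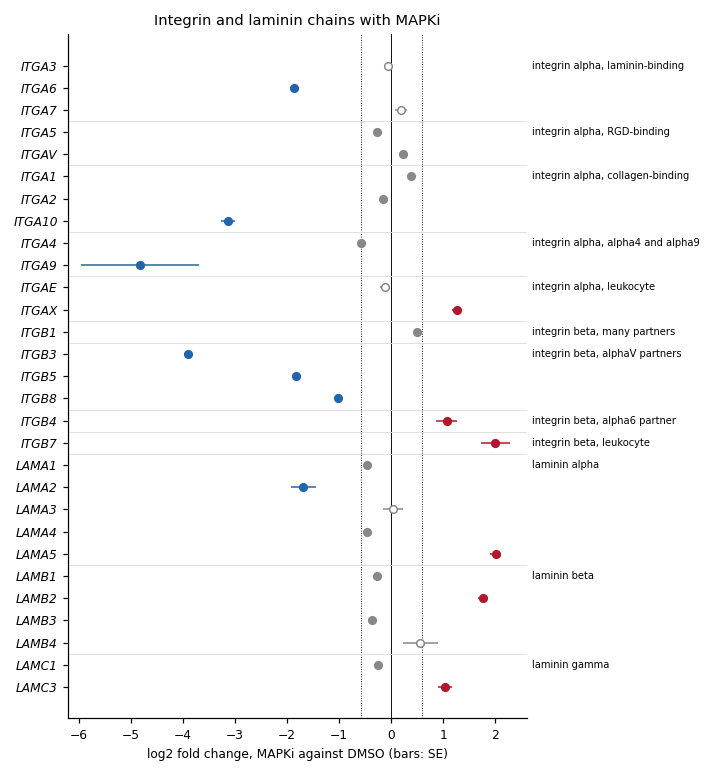
Log2 fold change of the 29 tested members with MAPKi against DMSO (horizontal axis; bars, SE; dotted lines, the threshold of a 1.5-fold change), grouped by chain type. Red points were upregulated and blue points downregulated, grey filled points passed the test against no change alone, and open points passed neither; ITGA9 at -4.82 has the widest bar.

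ITGB3, ITGB5 and ITGB8, which pair with the alphaV chain, fell, while alphaV itself and ITGB1, which can also pair with it, did not. ITGAV, which binds RGD-containing matrix proteins such as vitronectin and fibronectin, had 17214, 15030 and 14984 normalized counts with MAPKi and 14322, 12710 and 13439 with DMSO. The groups did not overlap, and ITGAV rose by a small log2 fold change of 0.22 (SE 0.069, edgeR adjusted p = 0.0181). ITGB3, its partner in the vitronectin receptor, had 3868, 3520 and 3542 normalized counts with MAPKi and 54304, 53405 and 55527 with DMSO. Every MAPKi library lay far below every DMSO library, with a log2 fold change of -3.90 (SE 0.056, edgeR adjusted p = 1.43e-09). ITGB3 lies on chr17:47253827-47313743 (GRCh38), and 33.2% of its exon bases are also annotated to another protein-coding gene on the same strand, which was not analysed here. ITGB5, the partner in another vitronectin receptor, had 6992, 6596 and 6548 against 23761, 23280 and 24186, which gave a log2 fold change of -1.82 (SE 0.046, edgeR adjusted p = 1.16e-08). ITGB8, whose pair with alphaV binds latent TGF-beta, had 6777, 6017 and 5781 against 13591, 12810 and 11532, without overlap. Its log2 fold change of -1.03 (SE 0.078, edgeR adjusted p = 4.52e-06) was the smallest of the 3. The threshold call of ITGB8 was lost in a fit of all 12 libraries (edgeR threshold adjusted p = 0.134). ITGB6, a further partner of alphaV, had at most 2 raw counts in any library.

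ITGB1, which pairs with most alpha chains, moved the other way. It had 16158, 14403 and 14562 normalized counts with MAPKi and 11051, 10179 and 10957 with DMSO, and the groups did not overlap. Its log2 fold change of 0.49 (SE 0.059) passed the test against no change (edgeR adjusted p = 8.62e-05) but not the threshold. As a share of the summed RPKM of the 8 integrin beta chains, ITGB3 made up 60.4% ± 0.444 in DMSO and 17.6% ± 0.0978 with MAPKi (SD, n = 3). ITGB1 made up 5.58% ± 0.166 and 34.1% ± 0.398, and ITGB5 27.6% ± 0.142 and 34.1% ± 0.632. The summed RPKM of the beta chains was 380.0 ± 2.80 in DMSO and 85.8 ± 2.97 with MAPKi, so the share of ITGB5 was higher although its level fell. These shares are a description, since 3 libraries against 3 cannot reach an exact permutation p below 0.05.

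**Figure D2:**
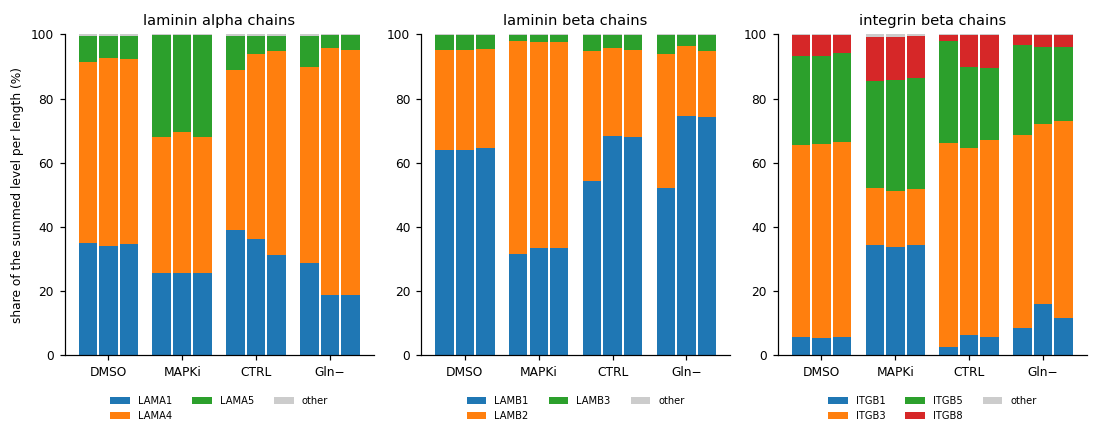
Share of each chain in the summed RPKM of its family (vertical axis, %), with 1 bar per library and 3 libraries per group, for laminin alpha, laminin beta and integrin beta chains. With MAPKi, LAMA5 and LAMB2 take a larger part (31.1% and 64.8% on average) than in DMSO (7.52% and 31.1%), and ITGB3 a smaller one.

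The alpha chains that bind laminins did not change together. ITGA6, the alpha chain of hemidesmosomes and of many migrating cells, had 10140, 8576 and 8527 normalized counts with MAPKi and 35073, 32493 and 32113 with DMSO. All 3 MAPKi libraries were below all DMSO libraries, with a log2 fold change of -1.87 (SE 0.077, edgeR adjusted p = 1.11e-07). ITGA3 had a log2 fold change of -0.07 (SE 0.064) and ITGA7, best known from muscle, one of 0.18 (SE 0.116), and neither passed either test. ITGB4, the partner of ITGA6 in hemidesmosomes, was counted at a much lower level, with 92.6, 92.9 and 68.6 normalized counts against 45.9, 33.3 and 41.6. It was upregulated, with a log2 fold change of 1.07 (SE 0.20, edgeR adjusted p = 0.0013), but its threshold call was lost without MAPKi replicate 1, MAPKi replicate 2 or DMSO replicate 2, with threshold adjusted p-values from 0.0567 to 0.0611.

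Collagen-binding alpha chains differed in direction. ITGA10, known from cartilage, had 129, 147 and 97.2 normalized counts with MAPKi and 1112, 1017 and 1119 with DMSO. Its log2 fold change of -3.13 (SE 0.133, edgeR adjusted p = 1.33e-07) was the second largest fall among members with a mean of at least 100 normalized counts. ITGA1 rose by a log2 fold change of 0.38 (SE 0.070) and ITGA2 fell by 0.15 (SE 0.058), each without passing the threshold. Of the other chains that bind fibronectin, ITGA5 and ITGA4 fell by less than the threshold, with -0.27 (SE 0.060) for ITGA5, the classical fibronectin receptor chain, and -0.58 (SE 0.043) for ITGA4, which also binds VCAM1. ITGA9, related to ITGA4, had 1, 0 and 8.9 normalized counts with MAPKi and 10.7, 159.8 and 141.3 with DMSO. DMSO replicate 1 lay close to the MAPKi libraries, and the log2 fold change of -4.82 carried an SE of 1.13.

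ITGAX, the alpha chain of a leukocyte receptor for complement, had 714, 692 and 654 normalized counts with MAPKi and 299, 246 and 316 with DMSO. The groups did not overlap, and it was upregulated by a log2 fold change of 1.26 (SE 0.101, edgeR adjusted p = 6.41e-06). Its threshold call was lost in a fit of all 12 libraries (edgeR threshold adjusted p = 0.127). The part of other cells in the value of ITGAX was not tested. Of the leukocyte markers, CD3E was at 0 and PTPRC had 3 to 6 raw counts with MAPKi and 14 to 17 with DMSO. LYZ had 25 to 38 with MAPKi and 37 to 51 with DMSO, and LCP2 369 to 421 and 271 to 337. ITGB7, a chain of lymphocyte receptors, had 33.2, 30.2 and 30.3 normalized counts against 8.5, 8.8 and 5.8 and was upregulated by a log2 fold change of 2.00 (SE 0.282, edgeR adjusted p = 0.000227). ITGB7 was tested only because its MAPKi libraries lifted its mean over the filter, so this call is a description. Annotated exons of ZNF740 on the opposite strand cover 42.3% of the exon bases of ITGB7, and ZNF740 had 2423 to 3037 raw counts with MAPKi and 1470 to 1667 with DMSO. Whether reads were counted by strand is not given in the sources used here, and the part of ZNF740 in the value of ITGB7 was not tested. ITGAE, the alpha chain that binds E-cadherin, had a log2 fold change of -0.12 (SE 0.089) and passed neither test.

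Among the laminin chains, LAMA5, LAMB2 and LAMC3 were upregulated and LAMA2 was downregulated. LAMA5 had 7121, 5653 and 5817 normalized counts with MAPKi and 1727, 1400 and 1479 with DMSO. The groups were far apart, with a log2 fold change of 2.01 (SE 0.108, edgeR adjusted p = 5.08e-07). LAMB2 had 15949, 12772 and 12826 against 4209, 3792 and 4294, with a log2 fold change of 1.76 (SE 0.095, edgeR adjusted p = 5.39e-07). LAMC3, a gamma chain of low level here, had 193, 163 and 161 against 92.8, 83.3 and 77.4 and was upregulated by 1.03 (SE 0.133, edgeR adjusted p = 0.000135). DESeq2 with the same threshold called neither LAMC3 (adjusted p = 0.0911) nor ITGB4 (adjusted p = 0.302).

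The other laminin chains with a high level, and LAMB3 with a lower level (2.48 RPKM in DMSO), fell by less than the threshold. LAMA4, a chain of vessel and tumour laminins, had 8048, 6941 and 6568 normalized counts with MAPKi and 9918, 9643 and 10014 with DMSO, a log2 fold change of -0.46 (SE 0.073). LAMA1, of embryonic laminins, had the same value of -0.46 (SE 0.078), LAMB1 had -0.28 (SE 0.073), LAMC1 -0.25 (SE 0.077) and LAMB3 -0.37 (SE 0.077). LAMA2, known from muscle, was downregulated by 1.69 on the log2 scale (SE 0.240) from a mean of only 35.1 normalized counts. LAMA3, of skin laminins, and LAMB4 passed neither test. On the RPKM scale, LAMB1 made up 64.3% ± 0.373 of the laminin beta chains in DMSO and 32.9% ± 1.02 with MAPKi, and LAMB2 31.1% ± 0.181 and 64.8% ± 1.19 (SD, n = 3). LAMA4 made up 57.7% ± 1.10 of the alpha chains in DMSO and 43.0% ± 0.887 with MAPKi, LAMA1 34.5% ± 0.521 and 25.6% ± 0.0887, and LAMA5 7.52% ± 0.629 and 31.1% ± 0.857. The summed RPKM of the alpha chains was 41.1 ± 1.15 in DMSO and 39.5 ± 3.65 with MAPKi, a difference within the spread of the MAPKi libraries. For the beta chains the sum was 55.3 ± 3.05 and 88.1 ± 7.99. LAMC1 made up 99.3% to 99.9% of the summed gamma chains in the group means.

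**Figure D3:**
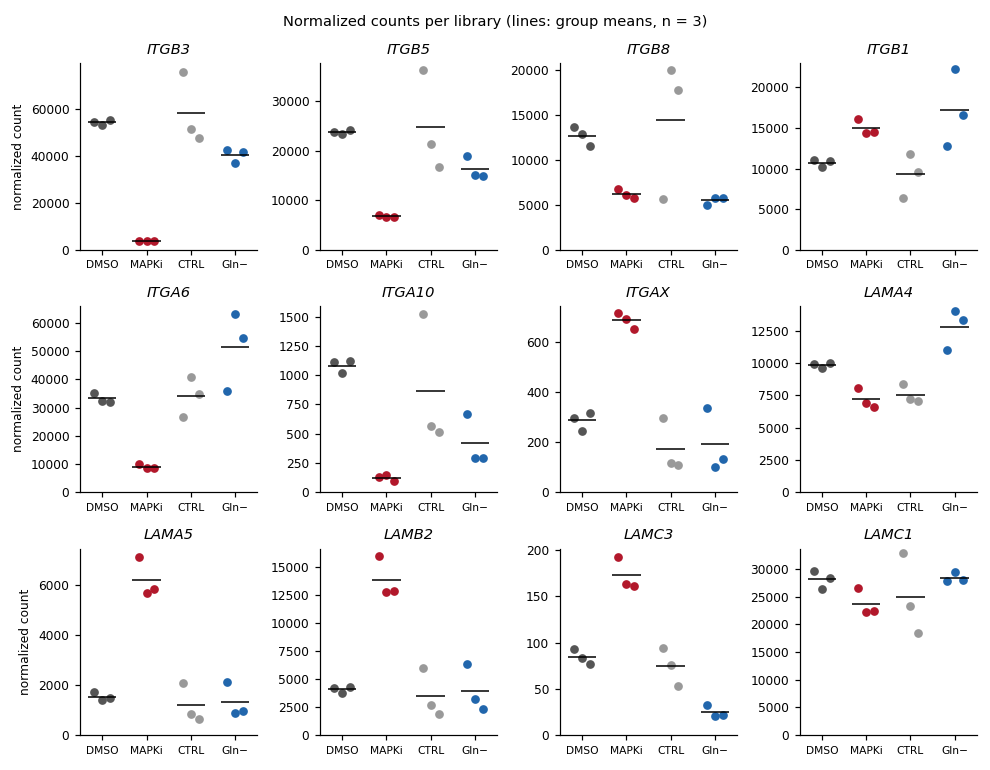
Normalized counts of 12 members in every library (vertical axes, linear from 0), with DMSO and MAPKi normalized together and CTRL and Gln-depleted medium (Gln−) normalized together. Points are libraries and lines are means of 3; DMSO and MAPKi libraries of ITGB3, ITGA6, LAMA5 and LAMB2 are far apart, and 1 CTRL library lies away from the other two for ITGB5, ITGB8 and ITGA10.

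In the Gln experiment, no member passed the threshold in the fit without pairing. The count was 0 of 29 with edgeR and 0 with DESeq2. Among all 15900 genes tested, 3.21% were upregulated and 1.65% downregulated. Against no change, LAMA4 rose and LAMC3 fell, where 8.84% of all genes rose and 6.96% fell. The replicate numbers pair the libraries of this experiment, so values with the replicate number as a block are given too. With the block, ITGB1 was upregulated and ITGA10 and LAMC3 were downregulated, against 8.41% and 6.33% of all genes. Against no change, 6 members rose and 7 fell with the block, against 22.7% and 19.8% of all genes. The median log2 fold change was 0.13 over the members without the block and 0.10 with it, and 0.017 over all genes in both fits.

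ITGB1 had 12837, 22214 and 16632 normalized counts in Gln-depleted medium and 6408, 11842 and 9607 in CTRL medium, in the order of the replicate numbers. The groups did not overlap, and the log2 ratio within a number was 1.00, 0.91 and 0.79. The log2 fold change was 0.89 (SE 0.289, edgeR adjusted p = 0.0721) without the block and 0.90 (SE 0.108, edgeR adjusted p = 0.0012) with it. ITGB1 thus had a higher level in both treatments. The 3 laminin-binding alpha chains all rose with the block: ITGA3 by a log2 fold change of 0.66 (SE 0.140), ITGA6 by 0.58 (SE 0.105) and ITGA7 by 0.67 (SE 0.186). ITGA6 had 36009, 63265 and 54671 normalized counts against 26495, 40918 and 34652, higher in each pair although the groups overlapped. ITGAV also rose with the block, by 0.40 (SE 0.111, edgeR adjusted p = 0.0256).

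**Figure D4:**
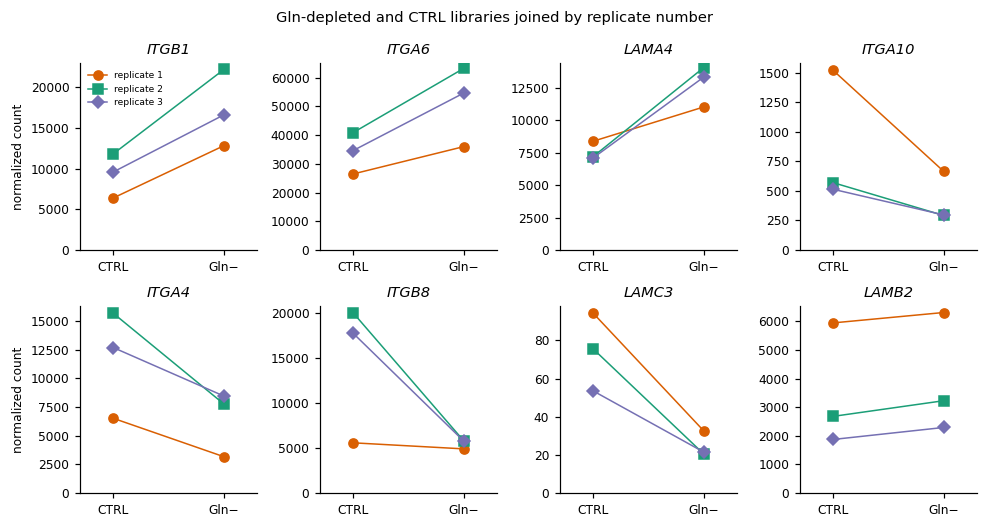
Normalized counts of 8 members in CTRL and Gln-depleted medium (Gln−), with libraries of the same replicate number joined by a line (vertical axes, linear from 0). ITGB1, ITGA6 and LAMA4 are higher without glutamine in 3 of 3 pairs and ITGA10, ITGA4 and LAMC3 lower in 3 of 3, while ITGB8 in replicate 1 changes little.

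Several chains were lower in Gln-depleted medium. ITGA10 had 666, 292 and 297 normalized counts against 1521, 570 and 514, and CTRL replicate 1 lay far above the other CTRL libraries. Its log2 fold change was -1.05 (SE 0.498, edgeR adjusted p = 0.178) without the block and -0.99 (SE 0.150, edgeR adjusted p = 0.00271) with it, and the log2 ratios within a number were -1.19, -0.96 and -0.79. ITGA4 had 3174, 7771 and 8463 against 6521, 15677 and 12689, lower in 3 of 3 pairs, and with the block it fell by 0.88 on the log2 scale (SE 0.13) and just missed the threshold (edgeR threshold adjusted p = 0.0516). ITGA5 fell by 0.56 with the block (SE 0.109), and of the chains that pair with alphaV, ITGB3 fell by 0.50 (SE 0.139), ITGB5 by 0.53 (SE 0.157) and ITGB8 by 1.21 (SE 0.298), while ITGB1 rose as given above. ITGB8 had 4903, 5786 and 5762 normalized counts against 5574, 19971 and 17708. With every library of this experiment it did not pass the threshold (edgeR threshold adjusted p = 0.179 without the block and 0.0862 with it). CTRL replicate 1, from experimental batch 1, lay within the Gln-depleted range, and without it ITGB8 was downregulated by 1.78 (edgeR threshold adjusted p = 0.00924). In experimental batch 2 alone its log2 fold change was -1.71 (edgeR threshold adjusted p = 0.00707), while the pair of experimental batch 1 had a log2 ratio of -0.19.

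Among the laminins, LAMA4 and LAMC3 changed without glutamine. LAMA4 had 11006, 14036 and 13303 normalized counts in Gln-depleted medium and 8370, 7190 and 7088 in CTRL medium. The groups did not overlap, and the log2 fold change was 0.76 (SE 0.184, edgeR adjusted p = 0.0305), with a log2 ratio of 0.39 in the pair of experimental batch 1 and of 0.96 and 0.91 in those of experimental batch 2. LAMC3 had 32.6, 20.5 and 21.5 against 94.2, 75.5 and 53.5, a log2 fold change of -1.58 (SE 0.379, edgeR adjusted p = 0.0296), and the log2 ratios within a number were -1.50, -1.83 and -1.28. LAMA5 and LAMB2, the laminin chains that rose most with MAPKi, had log2 fold changes of 0.15 (SE 0.505) and 0.17 (SE 0.492) and passed no test, with or without the block. LAMB2 had 6312 and 5949 normalized counts in the libraries of experimental batch 1 and 1875 to 3229 in those of experimental batch 2, a gap larger than that between the media.

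The changes of the 2 experiments were compared by a test of their difference over the 12 libraries, which share no control library. In this comparison, the treatment and the sequencing batch cannot be told apart. Of 29 members tested, 11 differed (edgeR, adjusted p of at most 0.05), where 36.1% of all 16072 genes did. For 5 of them the log2 change was higher with MAPKi (ITGB7, LAMA5, LAMB2, LAMB4 and LAMC3) and for 6 it was lower (ITGA6, ITGA10, ITGB3, ITGB5, LAMA2 and LAMA4). ITGB7 was too low to be tested in the Gln experiment and entered here through its MAPKi libraries, with a mean of 11.96 normalized counts. ITGB3 differed by -3.33 (SE 0.238, edgeR adjusted p = 1.94e-06) and ITGA6 by -2.43 (SE 0.287, edgeR adjusted p = 6.81e-05), the latter with a fall in 1 experiment and higher values in each pair of the other. LAMA4 also went in opposite directions and differed by -1.18 (SE 0.183, edgeR adjusted p = 0.000453). LAMC3 rose with MAPKi and fell without glutamine, a difference of 2.64 (SE 0.367, edgeR adjusted p = 0.000211). LAMA5 differed by 1.91 (SE 0.602, edgeR adjusted p = 0.0276) and LAMB2 by 1.63 (SE 0.584, edgeR adjusted p = 0.0474). Of the 11 calls, 4 depended on single libraries. LAMB2 lost its call when any 1 of 9 libraries was left out, LAMA5 for 6 libraries, LAMB4 for 5 and ITGA10 for 1 (MAPKi replicate 3, adjusted p = 0.0519). With the replicate block, 19 members differed, where 53.2% of all genes did, LAMA5 by 1.84 (SE 0.156, edgeR adjusted p = 4.88e-05) and LAMB2 by 1.57 (SE 0.119, edgeR adjusted p = 2.95e-05).

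**Figure D5:**
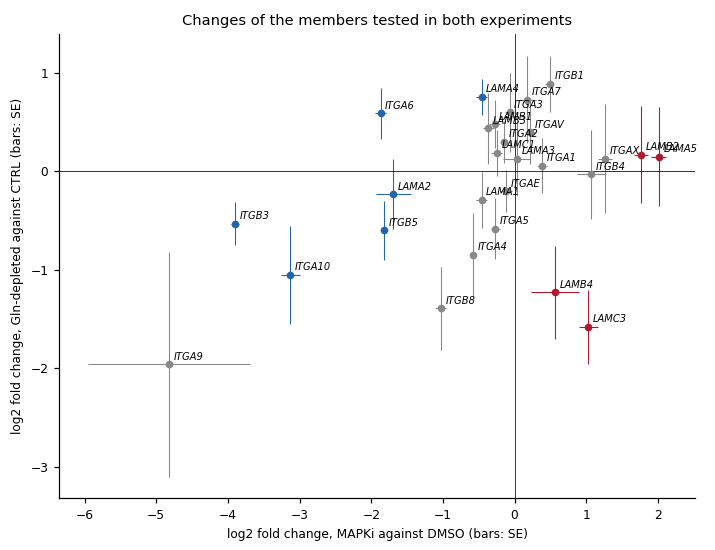
Log2 fold change with MAPKi against DMSO (horizontal axis) and in Gln-depleted against CTRL medium (vertical axis, fit without the block) of 28 members tested in both experiments, with SE bars. Red and blue points passed the test of the difference, with a higher or a lower change with MAPKi; ITGA6 and LAMA4 lie in the upper left and LAMC3 in the lower right.

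Of 39 genes of the adhesion machinery, which work with integrins inside the cell, 35 were tested with MAPKi. Of these, 14.3% (5) were upregulated and 20% (7) downregulated, near the 16.4% and 17.4% of all genes, with a median log2 fold change of 0.05. TNS1, a tensin of mature adhesions, had 288, 168 and 296 raw counts with MAPKi and 5, 0 and 3 with DMSO. ITGB1BP1, which binds the tail of ITGB1, rose by 0.93 (SE 0.041), and TLN1, the talin that activates integrins, by 0.83 (SE 0.055). FERMT1, a kindlin of epithelia, fell by 2.6 (SE 0.097), ACTN1, an actin cross-linker, by 2.39 (SE 0.076), and NEDD9, a scaffold of focal adhesions, by 2.04 (SE 0.054). In the Gln experiment 0 of 34 passed the threshold without the block (edgeR), where 3.21% of all genes were upregulated and 1.65% downregulated. Against no change 2 rose, where 8.84% of all genes did. With the block 5.9% (2) were upregulated and 0 downregulated, below the 8.41% and 6.33% of all genes. Among those upregulated was FLNA, a filamin that cross-links actin, by 1.14 (SE 0.202).

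Of 20 other integrin ligands, 13 were tested with MAPKi, of which 30.8% (4) were upregulated and 15.4% (2) downregulated, against 16.4% and 17.4% of all genes, with a median log2 fold change of 0.11. SPP1, or osteopontin, a ligand of alphaV integrins, had 34314, 24193 and 31670 raw counts with MAPKi and 6138, 5659 and 6496 with DMSO, a log2 fold change of 2.29 (SE 0.104). TGFB1 rose by 0.94 (SE 0.074) and MFGE8, an RGD protein, by 0.90 (SE 0.086), while TNC, or tenascin C, fell by 1.35 (SE 0.053) and ICAM1 by 0.74 (SE 0.076). SPP1 moved the other way in the Gln experiment, where it fell by 1.45 (SE 0.267, edgeR adjusted p = 0.0127), TGFB3 fell by 1.41 (SE 0.225) and THBS1, or thrombospondin 1, rose by 1.40 (SE 0.249). These 3 were the genes called among 12 tested there, where 3.21% of all genes were upregulated and 1.65% downregulated.

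Of 20 basement membrane genes and laminin or integrin partners, 18 were tested with MAPKi, of which 16.7% (3) were upregulated and 22.2% (4) downregulated, near the 16.4% and 17.4% of all genes, with a median log2 fold change of 0.11. BCAM, a cell surface receptor for the laminin alpha5 chain, had 1704, 1359 and 1723 raw counts with MAPKi and 302, 270 and 338 with DMSO, a log2 fold change of 2.38 (SE 0.089). NID1, the nidogen that binds laminin in basement membranes, rose by 0.90 (SE 0.084) and the glypican GPC1 by 1.08 (SE 0.069). The syndecans SDC1 and SDC3 fell by 2.17 (SE 0.077) and 2.05 (SE 0.074), and PLEC, which links ITGB4 to keratin filaments, by 1.36 (SE 0.085). Without glutamine, SDC1 was downregulated, by 2.69 (SE 0.437, edgeR adjusted p = 0.00822). It was the only 1 of 18 tested (5.6%) that was called without the block, where 3.21% of all genes were upregulated and 1.65% downregulated. With the block SDC4 and BCAM were upregulated too, by 1.23 (SE 0.171) and 1.15 (SE 0.201). That made 11.1% upregulated and 5.6% downregulated with the block, near the 8.41% and 6.33% of all genes.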

How the data were processed

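RNA-seq of A375 cells was analysed from raw counts per gene that the authors deposited, with 3 libraries in each of 4 groups. Per the labels, the authors trimmed reads with fastp 0.20.1, aligned them to GRCh38.p13 with HISAT2 2.2.1 and counted them with HTSeq 0.13.5, without normalization. All value columns were used. Some genes of the lists are not reported here. Members and gene lists were chosen with earlier results of these data known.

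Per experiment, edgeR 4.0.16 (R 4.3.3) was run with TMM factors and a quasi-likelihood model of the treatment on every gene whose normalized counts averaged 10 or more. Genes called up- or downregulated passed glmTreat for a change beyond 1.5-fold after Benjamini-Hochberg adjustment (adjusted p up to 0.05). "Rose" and "fell" refer to the test against no change, which also gives the adjusted p of a gene unless the threshold is named. The difference between experiments was a contrast over the 12 libraries. Normalized counts are scaled within each experiment. RPKM was computed from total counts and the union of exons in the GENCODE v44 annotation of GRCh38, which is not the annotation the authors counted on.

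Members with a mean of at least 100 normalized counts that passed the threshold, or the test of the difference, are given in every library, as are some others chosen after their values were seen. Of the other lists, the 3 largest changes per direction among called genes with such a mean are named. Deviations from group means correlated across genes at 0.662, 0.532 and 0.483 for libraries of the same replicate number in the Gln experiment, and at 0.036, 0.044 and -0.102 in the MAPKi experiment, so the numbers pair the libraries in the former only. In simulated data with 200 genes changed by 2 on the log2 scale, 199 were called when the simulated spread was that of DMSO libraries, and 162 when it was that of CTRL libraries. Of the unchanged genes, 8 and 3 were called. The changed genes had a mean of at least 100 counts, and smaller changes and paired libraries were not simulated. Depth was 31056296 to 40071368 counts per library. Alternatives were DESeq2 1.42.0, its size factors, other thresholds and filters, protein-coding genes, a fit of all 12 libraries, the replicate block and leaving out libraries. Figures were drawn with matplotlib 3.10.9 in Python 3.11.15.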

Additional observations from a re-analysis of the deposited data

How the results depend on the processing

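With MAPKi, the counts of 6 upregulated and 7 downregulated members became 3 upregulated in a fit of all 12 libraries and 15 downregulated without a fold-change threshold, and stayed within 1.5 times under the other alternatives tried; leaving out 1 library gave 5 to 6 and 7 to 7. In the fit of all 12 libraries, ITGAX, ITGB4, LAMC3 and ITGB8 lost their calls (edgeR threshold adjusted p from 0.0628 to 0.134). The replicate block gave 6 and 7 in the MAPKi experiment, where the numbers do not pair the libraries. In the Gln experiment, the 0 upregulated members became 1 without a threshold and 1 with the replicate block, and the 0 downregulated became 1 without a threshold, 2 in the fit of all 12 libraries, 2 with the replicate block and 1 in experimental batch 2 alone. Leaving out 1 library there gave 0 to 0 upregulated and 0 to 1 downregulated, the latter being ITGB8 without CTRL replicate 1. The 11 members that differed between the experiments became 7 with a mean count of at least 100, 19 with the replicate block, 17 in experimental batch 2 alone, and 7 to 15 when a library was left out, 7 without MAPKi replicate 1. The cause of these shifts was not tested, except that fewer members, 22, were tested with a mean of at least 100.

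Of 380 recomputed log2 changes of 24 members with MAPKi, 0 changed sign, 14 lost and 11 gained a call. In the Gln experiment 0 of 220 changed sign and 9 gained a call, and of 204 differences 0 changed sign and 22 lost the call. ITGB3 stayed between -3.96 and -3.88 with MAPKi and LAMA5 between 1.89 and 2.11. Depth was similar in both experiments, while the chi-square per degree of freedom between replicates of a group was 36.2 to 174 in the Gln experiment and 4.47 to 14.4 in the MAPKi experiment.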
